A study of Mus musculus with 19 samples.

Results

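The 6 transcription factors Snai1, Snai2, Twist1, Twist2, Zeb1 and Zeb2 were followed in whole obstructed kidneys. They were taken by gene symbol from a count table of 54532 genes, of which 33651 had at least 1 count, and all 6 were present. The 19 kidneys came from male C57BL/6J mice aged 8 to 9 weeks, in which the left ureter had been tied and cut to cause unilateral ureteral obstruction (UUO), a surgical model of kidney fibrosis. They were taken on day 12. The mice were wild-type (WT) or CD5L KO, that is, deficient in CD5L, a protein that circulates in blood, and were injected daily with recombinant CD5L (rCD5L, 0.5 mg per injection) or with PBS. There were 5 kidneys of WT mice given PBS, 5 of WT mice given rCD5L, 4 of CD5L KO mice given PBS and 5 of CD5L KO mice given rCD5L. All 4 groups are labelled as obstructed kidneys of the same age and strain, so the factors were not compared with an unobstructed kidney here. The sample titles number the libraries of a group as biological replicates.

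Epithelial to mesenchymal transition (EMT) is the program by which epithelial cells lose their junctions and polarity and take on features of migrating, matrix-producing cells. SNAI1 and SNAI2 (Snail and Slug) are zinc finger proteins and ZEB1 and ZEB2 are zinc finger and homeodomain proteins, and both kinds bind E-box sequences in genes such as Cdh1 (E-cadherin) and repress them. TWIST1 and TWIST2 are basic helix-loop-helix proteins that bind E-boxes as dimers with E proteins. In the kidney the program is known from injured tubules, which can turn on part of it without leaving the epithelium, while the same factors are also made by fibroblasts, pericytes, endothelial cells and macrophages. In a whole kidney, fewer cells of a type and less RNA per cell cannot be told apart.

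Between 17917491 and 23847090 counts were assigned to genes in each kidney. Cd5l, the gene removed in the KO, had 3 to 15 counts in the WT kidneys and 0 counts in every CD5L KO kidney, where a count of 0 allows up to 3. One kidney stood apart, the 4th replicate among CD5L KO mice that received rCD5L. Mitochondrially encoded RNA took 10.3% of its counts against a median of 3.16% over all kidneys, and its proximal tubule markers summed to 22635 CPM (counts scaled to library size), against 1885 to 4132 CPM in the WT kidneys. Its fibroblast and macrophage markers were the lowest of the CD5L KO mice given rCD5L, at 440 and 839 CPM against group medians of 1250.5 and 2916 CPM. Every gene of these 3 marker lists had counts in at least 1 kidney. The sources used here do not say how complete the obstruction was in single mice, and its part in these values was not tested. The main values that rest on this kidney are also given without it and without replicate 3 of the same group, in which several of the 6 factors lay at an extreme.

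A regulatory layer described for the ZEB pair is the miR-200 family, epithelial microRNAs that are known to repress Zeb1 and Zeb2 and whose own genes the ZEB proteins repress. Their RefSeq sequences (GRCm38.p6) are shown because the seed, bases 2 to 8, given in capitals, decides which transcripts they can pair with. They fall into 2 seed groups, AAUACUG for miR-200b, miR-200c and miR-429, and AACACUG for miR-200a and miR-141.
miR-200b-3p (chr4:156055685-156055706, minus strand): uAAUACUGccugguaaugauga
miR-200c-3p (chr6:124718324-124718346, minus strand): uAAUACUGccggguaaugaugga
miR-429-3p (chr4:156053916-156053937, minus strand): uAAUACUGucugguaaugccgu
miR-200a-3p (chr4:156054911-156054932, minus strand): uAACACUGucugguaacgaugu
miR-141-3p (chr6:124717917-124717938, minus strand): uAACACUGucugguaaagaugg

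Matches to the 2 seeds were counted in the longest annotated 3′ untranslated region of each of 21020 coding genes (GENCODE vM21, GRCm38), as CAGTATT and CAGTGTT on the transcript's own strand, which are different words of equal length. A match was found in 25.8% of these genes. Zeb1 and Zeb2 each held 9 matches, 5 to the first seed and 4 to the second, and 0.0143% of genes held as many. Snai2 held 2 matches, Snai1 held 1, and Twist1 and Twist2 held 0. The regions differ in length, with 2401 bases for Zeb1, 4941 for Zeb2, 1089 for Snai2 and 731 for Snai1. Per kilobase, Zeb1 had 3.75 matches, Zeb2 1.82, Snai2 1.84 and Snai1 1.37, so that Zeb2 was no denser in matches than Snai2. The 4 matches of Zeb2 nearest to its stop codon and both matches of Snai2 are shown, with the seed match in capitals, to let the pairing with the microRNAs above be read off.
Zeb2 (chr2:44988352-44988373, minus strand): aattttgtaCAGTGTTaaggcc
Zeb2 (chr2:44988168-44988189, minus strand): accatacatCAGTATTttatta
Zeb2 (chr2:44988103-44988124, minus strand): acagtgcatCAGTATTacgatt
Zeb2 (chr2:44987820-44987841, minus strand): atccttgtaCAGTGTTcagagg
Snai2 (chr16:14708298-14708319, plus strand): tggcgcaacCAGTGTTtactca
Snai2 (chr16:14708714-14708735, plus strand): ccaaaggaaCAGTATTtcttct
A match describes the letters only. The hairpin genes of the family had between 0 and 4 counts in any kidney, Mir200c and Mir429 were at 0 in all 19, and the levels of the mature microRNAs were not measured.

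The other sequence shown is the start of Snai1, whose protein is known to bind its own promoter. In the 250 bases before the annotated start (chr2:167537945-167538194, GRCm38.p6, plus strand), 1 E-box (CANNTG, which reads alike on both strands) was found, CACCTG, in capitals, beginning 126 bases before the start.
Snai1: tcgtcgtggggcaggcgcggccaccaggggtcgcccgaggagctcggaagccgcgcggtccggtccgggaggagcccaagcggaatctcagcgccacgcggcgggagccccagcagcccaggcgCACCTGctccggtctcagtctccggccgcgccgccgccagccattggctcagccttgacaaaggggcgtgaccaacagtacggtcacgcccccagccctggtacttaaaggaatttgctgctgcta
Of 32851 promoter windows of the same length in RefSeq, 66.2% held CANNTG, and 17.2% held its CACCTG form or the reverse complement CAGGTG, which are among the CANNTG matches. The same window held 0 E-boxes in Twist1, Twist2 and each of the 4 starts of Zeb2, while Snai2 and Zeb1 were not examined. These are letters in 1 window and say nothing of binding.

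Compared per length of transcript, in FPKM (fragments scaled to gene length and library size) as deposited by the authors, Zeb2 had the highest mean of the 6, at 5.60 ± 1.16 FPKM (SD over 19 kidneys). Snai1 followed with 4.93 ± 1.56 FPKM, Snai2 with 3.40 ± 0.876 FPKM, Zeb1 with 2.86 ± 0.504 FPKM and Twist1 with 2.52 ± 0.575 FPKM. Twist2 was far below the rest, at 0.179 ± 0.0862 FPKM. In CD5L KO mice given rCD5L the means of the first pair were turned, at 4.75 FPKM for Snai1 and 4.43 FPKM for Zeb2. Replicates 3 and 4 of this group had 8.18 and 2.08 FPKM of Snai1 and 3.02 and 2.52 FPKM of Zeb2. The medians of the group, 3.90 FPKM for Snai1 and 4.98 FPKM for Zeb2, kept the order. Each neighbouring pair in this order overlapped in its range over kidneys apart from Twist1 and Twist2, which kept their order in 19 of 19 kidneys. The order of Zeb2 over Snai1 and of Snai1 over Snai2 held within 16 kidneys each, that of Snai2 over Zeb1 within 14, and that of Zeb1 over Twist1 within 15. Twist2 rested on 3 to 37 counts per kidney, against 850 to 3854 counts for Zeb2, whose transcript is longer.

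**Figure D1:**
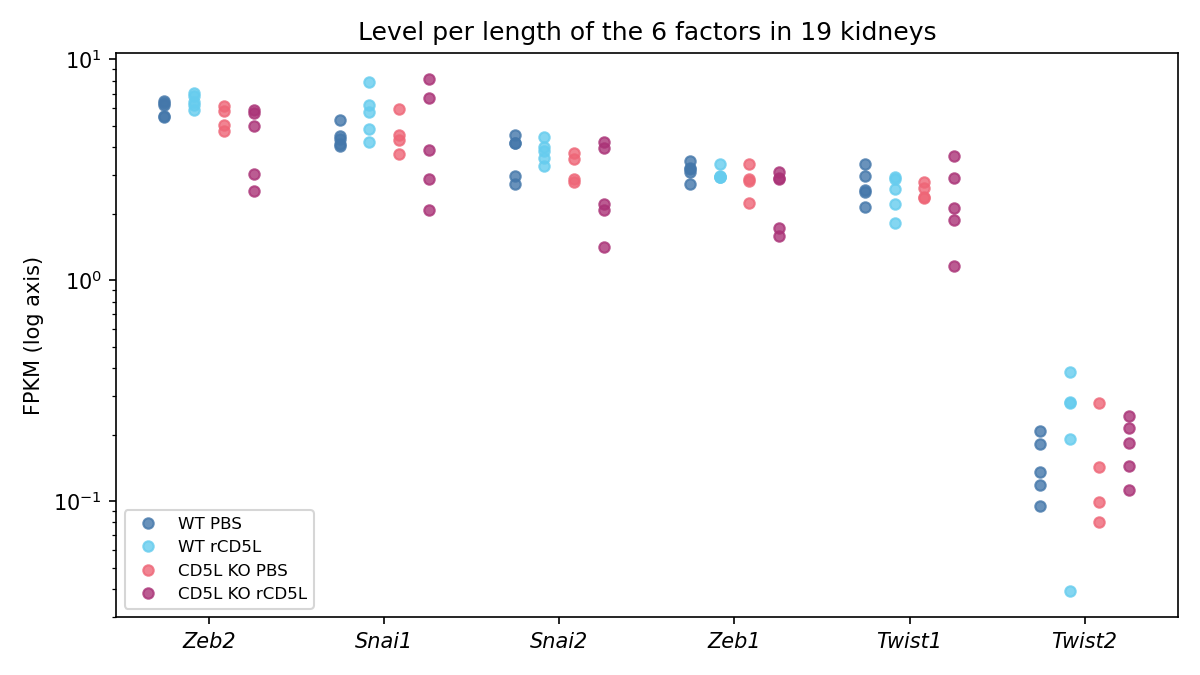
FPKM of the 6 factors on a log axis, with 1 point per kidney, coloured by group and ordered by mean level. Zeb2, Snai1, Snai2, Zeb1 and Twist1 form overlapping bands between 1.16 and 8.18 FPKM, and Twist2 lies apart between 0.0390 and 0.385 FPKM.

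Some of these genes overlap others, and whether reads were counted by strand is not given in the sources used here. The antisense gene Zeb2os lies wholly within Zeb2 and had 24 to 57 counts per kidney. Gm10125 overlaps Zeb1 on the opposite strand and had 13 to 37 counts. Gm29100 overlaps Twist2 on the opposite strand and had 0 to 8 counts, and Gm29101, on its strand, had 0 to 4, so the counts of Twist2 in particular may be shared. Snai1 (ENSMUSG00000042821, chr2:167538195-167542814), Snai2 (ENSMUSG00000022676, chr16:14705852-14709385) and Twist1 (ENSMUSG00000035799, chr12:33957671-33959829), all coding genes on the plus strand of GRCm38, overlapped no annotated gene.

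The levels between kidneys are given as CPM scaled by trimmed mean of M-values (TMM) factors. Snai1, the early-acting repressor of Cdh1, stood at 8.62, 10.6, 8.91, 8.01 and 8.25 CPM in replicates 1 to 5 of WT mice given PBS. With rCD5L the WT kidneys had 8.31, 12.3, 9.40, 15.3 and 11.3 CPM, of which 3 lay above all 5 kidneys given PBS. The CD5L KO kidneys given PBS had 11.9, 9.17, 8.67 and 7.44 CPM, which spans the range of the WT kidneys given PBS. With rCD5L the CD5L KO kidneys had 13.3, 7.71, 16.2, 4.18 and 5.76 CPM, so that this group held both the highest and the lowest Snai1 level of all kidneys.

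Snai2, the relative of Snai1 that is abundant in mesenchymal cells, stood at 11.2, 10.4, 6.72, 10.3 and 7.32 CPM in WT mice given PBS. The WT kidneys given rCD5L had 9.80, 9.49, 7.99, 10.8 and 8.70 CPM, inside the former range. In CD5L KO mice given PBS the values were 8.82, 9.43, 7.20 and 6.92 CPM, all inside the WT range as well. In CD5L KO mice given rCD5L they were 9.75, 10.4, 5.14, 3.52 and 5.49 CPM, and replicates 3, 4 and 5 were lower than any other kidney.

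Twist1 had 4.95, 6.74, 5.10, 5.86 and 4.26 CPM in WT mice given PBS. It had 3.58, 5.14, 4.32, 5.61 and 5.79 CPM in WT mice given rCD5L, and 5.25, 4.74, 4.82 and 5.62 CPM in CD5L KO mice given PBS, the tightest of the 4 groups. In CD5L KO mice given rCD5L it had 5.79, 3.71, 7.27, 2.34 and 4.26 CPM. As for Snai1, replicate 3 of this group was the highest and replicate 4 the lowest of all 19 kidneys. Twist2 is best given in counts, which were 18, 11, 11, 13 and 8 in WT mice given PBS. They were 25, 14, 25, 3 and 37 with rCD5L. The CD5L KO kidneys had 7, 9, 11 and 21 counts with PBS and 16, 13, 20, 6 and 19 with rCD5L. The WT group given rCD5L thus held both the lowest and the highest count of Twist2.

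Zeb1 had 43.2, 40.8, 34.3, 39.6 and 38.8 CPM in WT mice given PBS. It had 36.7, 42.1, 36.0, 36.6 and 36.4 CPM in WT mice given rCD5L, where 4 of the 5 kidneys lay within 1 CPM of each other. With CD5L KO the values were 36.4, 42.9, 28.6 and 35.8 CPM under PBS and 36.5, 38.9, 19.9, 21.8 and 36.1 CPM under rCD5L. Replicates 3 and 4 of the last group were the lowest of all kidneys.

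Zeb2, which besides its role in EMT is known from macrophages and other myeloid cells, had 157, 135, 136, 151 and 155 CPM in WT mice given PBS. It had 150.4, 165, 141, 169.5 and 154 CPM in WT mice given rCD5L, of which 2 kidneys exceeded all those given PBS. The CD5L KO kidneys had 151, 144, 117 and 124 CPM under PBS. Under rCD5L they had 139, 144, 73.5, 62.3 and 122 CPM, and replicates 3 and 4 were again the lowest of all. Replicate 3 therefore combined the highest Snai1 and Twist1 with nearly the lowest Snai2 and Zeb2 and the lowest Zeb1, while replicate 4 was at or near the bottom for each of these.

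**Figure D2:**
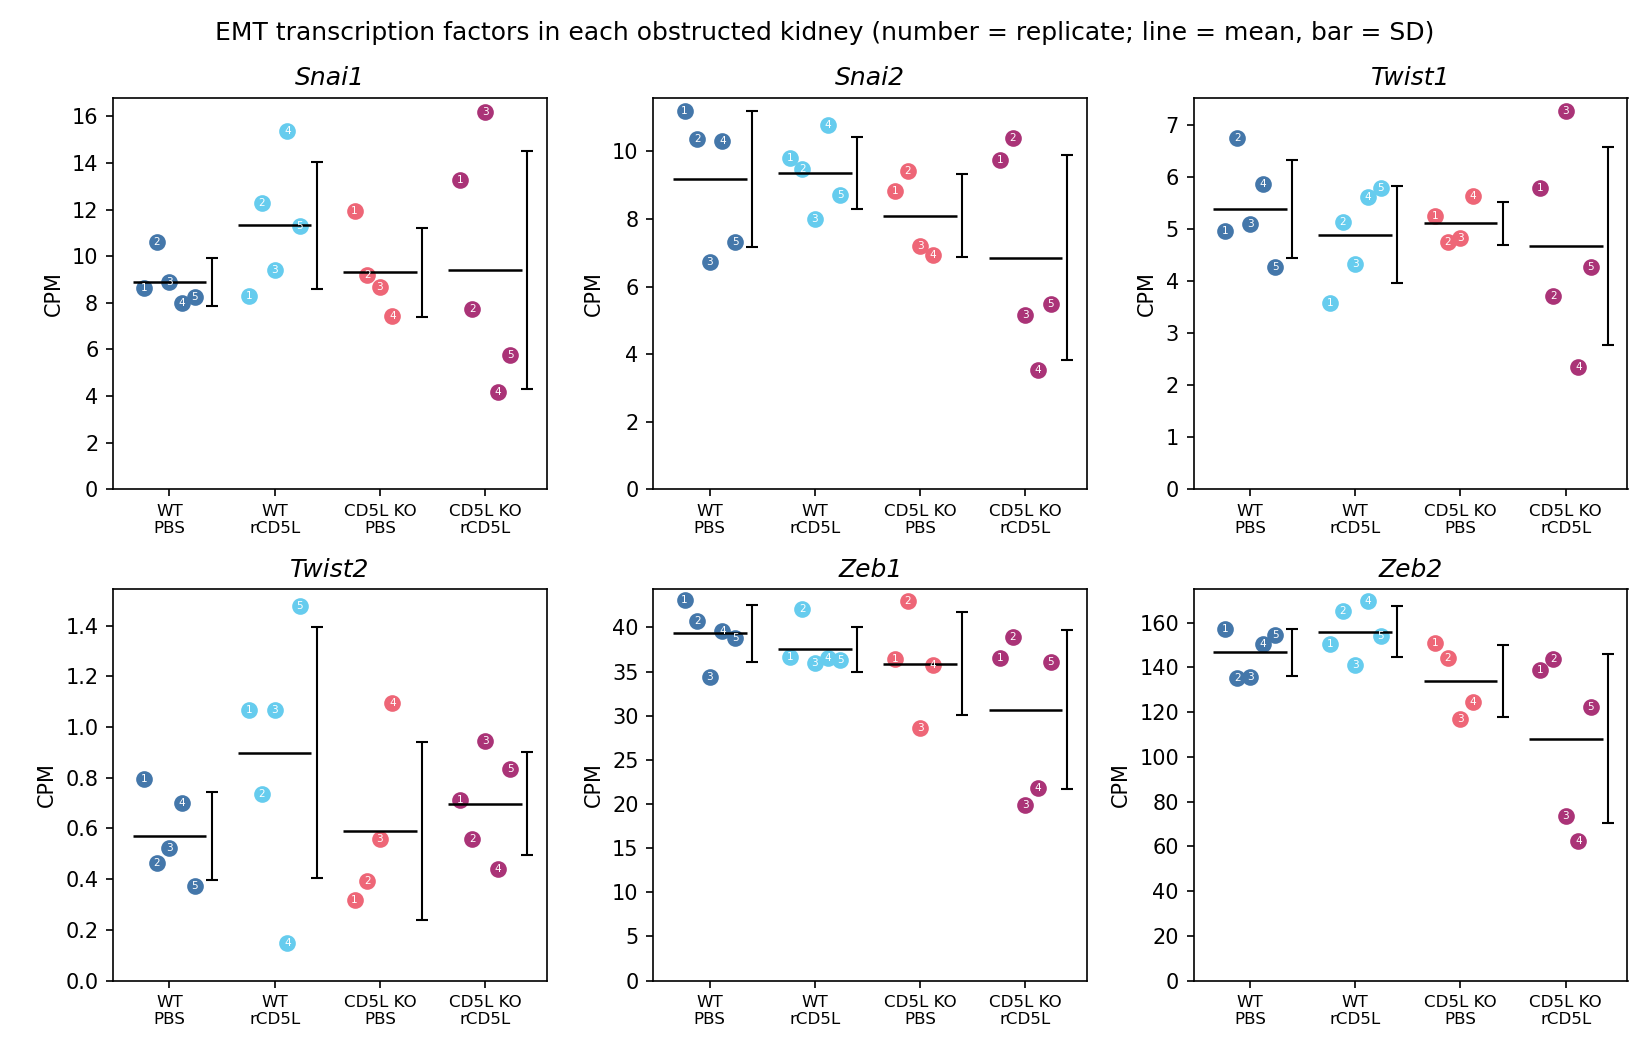
CPM of each factor in each kidney, by group, with replicate numbers in the points, the mean as a line and the SD as a bar. The groups overlap for every factor, and the CD5L KO kidneys given rCD5L spread most for Snai1, Snai2, Twist1, Zeb1 and Zeb2, with replicate 4 at 4.18 CPM and replicate 3 at 16.2 CPM for Snai1.

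The spread within groups differed between the factors. In WT mice given PBS the coefficient of variation was 7.17% for Zeb2, 8.23% for Zeb1, 11.6% for Snai1, 17.6% for Twist1, 21.9% for Snai2 and 30.5% for Twist2. In CD5L KO mice given rCD5L it was 34.9% for Zeb2, 29.4% for Zeb1 and 54.2% for Snai1. Without replicates 3 and 4 it was 8.36%, 3.99% and 43.7% over the other 3 kidneys. Over all kidneys the highest level exceeded the lowest by 2.17-fold for Zeb1, 3.87-fold for Snai1 and 9.91-fold for Twist2.

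The first comparison asked whether the lack of CD5L altered the factors in the obstructed kidney. None of the 6 passed the test between CD5L KO and WT mice given PBS, in a table where 10.5% of 17579 genes tested were called (edgeR quasi-likelihood test, Benjamini-Hochberg adjusted p under 0.05). With an unadjusted p under 0.05 the count was also 0 of 6, and DESeq2 and limma on FPKM likewise called 0. All 6 were tested here and in each comparison below. The 2 groups overlapped for every factor, whereas they did not overlap for 14.1% of genes tested. An unadjusted p under 0.05 was reached by 26.6% of genes.

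Among the repressors, Snai1 averaged 9.31 ± 1.90 CPM in CD5L KO mice given PBS (SD, n = 4) and 8.88 ± 1.03 CPM in WT mice given PBS (SD, n = 5), a log2 fold change of 0.06 with a 95% interval of -0.25 to 0.37 (edgeR adjusted p = 0.824). The log2 fold change of Snai2 was -0.19 with an interval of -0.56 to 0.19 (edgeR adjusted p = 0.536). Zeb1 averaged 35.9 ± 5.88 CPM against 39.3 ± 3.24 CPM in WT, a log2 fold change of -0.14 with an interval of -0.36 to 0.09. Zeb2 averaged 134 ± 16 CPM against 147 ± 10.5 CPM in WT, also -0.14, with an interval of -0.32 to 0.05 (edgeR adjusted p = 0.332). Leaving out CD5L KO replicate 3 given PBS moved Zeb1 to -0.04 and Zeb2 to -0.07, and leaving out replicate 2 moved Zeb1 to -0.24.

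The Twist pair did not pass either. Twist1 had a log2 fold change of -0.08, with an interval of -0.41 to 0.25. For Twist2 the estimate was 0.02 and the interval of -0.86 to 0.90 was the widest of the 6. The median log2 fold change of the 6 was -0.11, against -0.0046 over all genes tested.

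Level and gene length moved together between these groups. The slope of log2 CPM on length was -0.0481 to -0.0284 per doubling of length in CD5L KO mice given PBS and -0.00380 to 0.0320 in the corresponding WT mice. Zeb1 and Zeb2 have annotated lengths of 10266 and 19942 bases, against 1621 for Snai1. With an offset for gene length, the log2 fold change of Zeb2 was 0.0016 (edgeR adjusted p = 0.993).

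**Figure D3:**
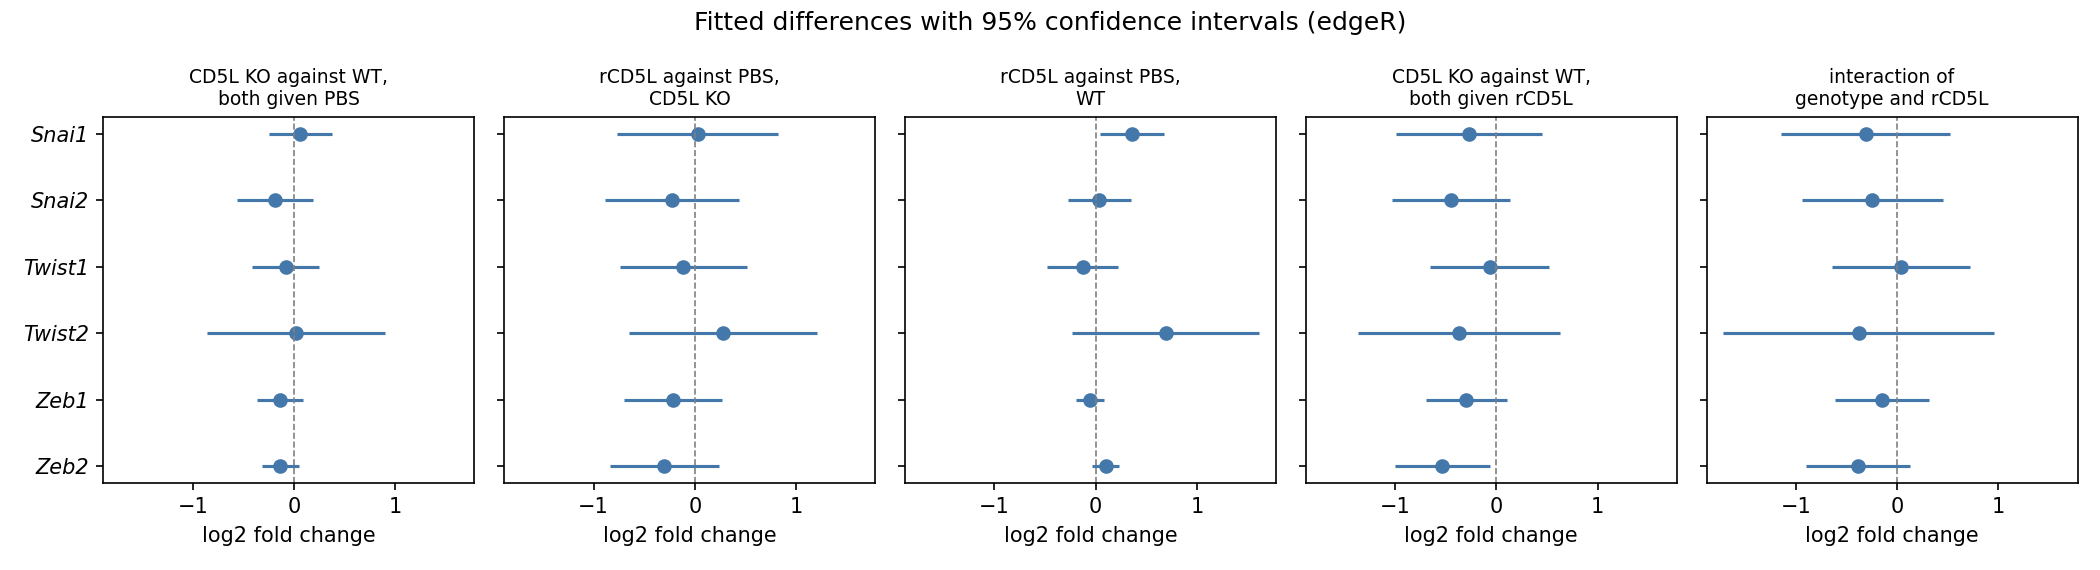
Log2 fold change of each factor in each comparison, as a point with its 95% confidence interval from edgeR. Intervals include 0 in each panel, apart from Snai1 with rCD5L in WT mice and Zeb2 between CD5L KO and WT mice given rCD5L, and they are widest for Twist2.

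Many of the genes that mark the mesenchymal state were lower. Of 30 tested mesenchymal genes that are raised in EMT, 15 were lower in CD5L KO than in WT mice given PBS and 0 were higher, where 5.40% of all genes were called lower and 5.13% higher. The median log2 fold change of the list was -0.46, against -0.0046 over all genes tested, and 28 of the 30 were negative. The fibrillar collagen gene Col5a1 averaged 95.9 ± 13 CPM in CD5L KO (SD, n = 4) and 165 ± 26.3 CPM in WT mice (SD, n = 5), a log2 fold change of -0.79 ± 0.118 (SE; edgeR adjusted p = 0.00506). Tnc, which encodes the matrix glycoprotein tenascin C, averaged 127 ± 19.6 CPM against 206 ± 23.8 CPM (-0.70 ± 0.108), and Col3a1 1090 ± 145 CPM against 1968 ± 421 CPM (-0.86 ± 0.145). The groups did not overlap for these 3 genes. The slope on gene length differed between these groups, as given above, and values of this list with the length offset are not given here. Mitochondrially encoded RNA took 3.40% to 4.55% of counts in the CD5L KO and 2.76% to 3.87% in the WT kidneys given PBS. The part of library quality in the list was not tested.

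The classical readouts of EMT were also in this list. Acta2, the smooth muscle actin of myofibroblasts, fell by 0.74 on the log2 scale (edgeR adjusted p = 0.0128), Fn1, the gene of fibronectin, by 0.62 (edgeR adjusted p = 0.0164) and the intermediate filament gene Vim by 0.42 (edgeR adjusted p = 0.0488). These calls depended on the fit. With all 19 kidneys in 1 fit, 0 of the 30 genes were called, with a median of -0.45, but only 0.0650% of all genes (12) were called. That fit shared 1 estimate of spread over all groups and tested 18454 genes against 17579, and which of these moved the calls was not tested. With 1 kidney left out in turn, between 10 (without CD5L KO replicate 3 given PBS) and 19 (without WT replicate 3 given PBS) were called lower.

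Some other stromal and vascular markers were also called lower. Of 12 endothelial markers 6 were lower and 0 higher, of 9 smooth muscle and pericyte markers 3 were lower and 0 higher, and of 10 fibroblast markers Col15a1 and Pdgfra were lower and Gpx8 higher. Counted in either direction, these are 50%, 33.3% and 30% of the lists, where 10.5% of all genes were called. With all 19 kidneys in 1 fit 0, 1 and 0 genes were called. Endothelial markers were negative in 12 of 12 (median -0.32) and smooth muscle and pericyte markers in 9 of 9 (-0.46). Fibroblast markers were negative in 6 of 10 (-0.09). The endothelial markers summed to 974 to 1097 CPM in CD5L KO and 1182 to 1328 CPM in WT mice given PBS. Urothelial markers stood the other way, at 296 to 459 CPM in CD5L KO and 45.6 to 266 CPM in WT mice given PBS, with 8 of 8 log2 fold changes positive, a median of 0.76 and 0 called. The part of cell composition in the fall of the mesenchymal genes was not tested.

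Few of the epithelial genes repressed in EMT were called. Cdh1 averaged 349 ± 23.6 CPM in CD5L KO (SD, n = 4) and 336 ± 8.10 CPM in WT mice given PBS (SD, n = 5), a log2 fold change of 0.05 ± 0.0556 (SE; edgeR adjusted p = 0.630). Of 34 epithelial genes tested, Muc1, a membrane mucin, fell by 0.39 on the log2 scale, and the polarity gene Crb3 rose by 0.27 (edgeR adjusted p = 0.00531 and 0.0445). The other 32 did not pass, the median was 0.01, and the 5.88% called lay below the 10.5% of all genes. Without any 1 kidney other than WT replicates 3 and 4 given PBS, 0 epithelial genes were called higher, and 1 or 2 lower.

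Of the signals upstream of the factors, a few were lower. The ligand Tgfb1, the best known inducer of EMT, had 86.0 ± 2.45 CPM in CD5L KO and 84.0 ± 9.22 CPM in WT mice given PBS, a log2 fold change of 0.03 (edgeR adjusted p = 0.843). Of 29 genes, 3 were lower and 0 higher: Stat3, a transcription factor downstream of cytokines (-0.36), Notch3, a receptor of mural cells (-0.46), and Tgfbr2, a receptor for TGF-beta (-0.24). This is 10.3% of the list, where 5.40% of all genes were called lower and 10.5% in either direction. In all 22 of the 29 were negative, with a median of -0.14 against -0.0046 over all genes. An unadjusted p under 0.05 was reached by 13, 11 of them lower, and by 26.6% of all genes in either direction. The edgeR adjusted p of the 3 called genes were 0.00866, 0.0167 and 0.0177. With 1 kidney left out the number lower ranged from 1, without CD5L KO replicate 1 given PBS, to 5, without WT replicate 3 given PBS.

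Among 35 genes for partners and stability regulators, 3 were lower and 1 higher, or 11.4%, beside 10.5% of all genes. At an unadjusted p under 0.05, 9 were higher and 3 lower, where 26.6% of all genes reached that p in either direction. Gsk3b (-0.18) and Csnk1e (-0.22) encode kinases, the former known to mark SNAI1 for degradation. Nid1, a basement membrane gene held in this list, changed by -0.56, and Bmi1, a Polycomb gene known to act with TWIST1, by 0.20. Their edgeR adjusted p were 0.0396, 0.0291, 0.00530 and 0.0381. Of 14 tested relatives such as Snai3, Foxc2, Prrx1 and Tcf4, 0 were called at an adjusted p under 0.05 and 1 had an unadjusted p under 0.05. Of the partners, only 1 was lower and 0 higher without CD5L KO replicate 1, 2 or 4 or WT replicate 2, 4 or 5 given PBS. With all 19 kidneys in 1 fit, 0 genes of these 4 lists were called.

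**Figure D4:**
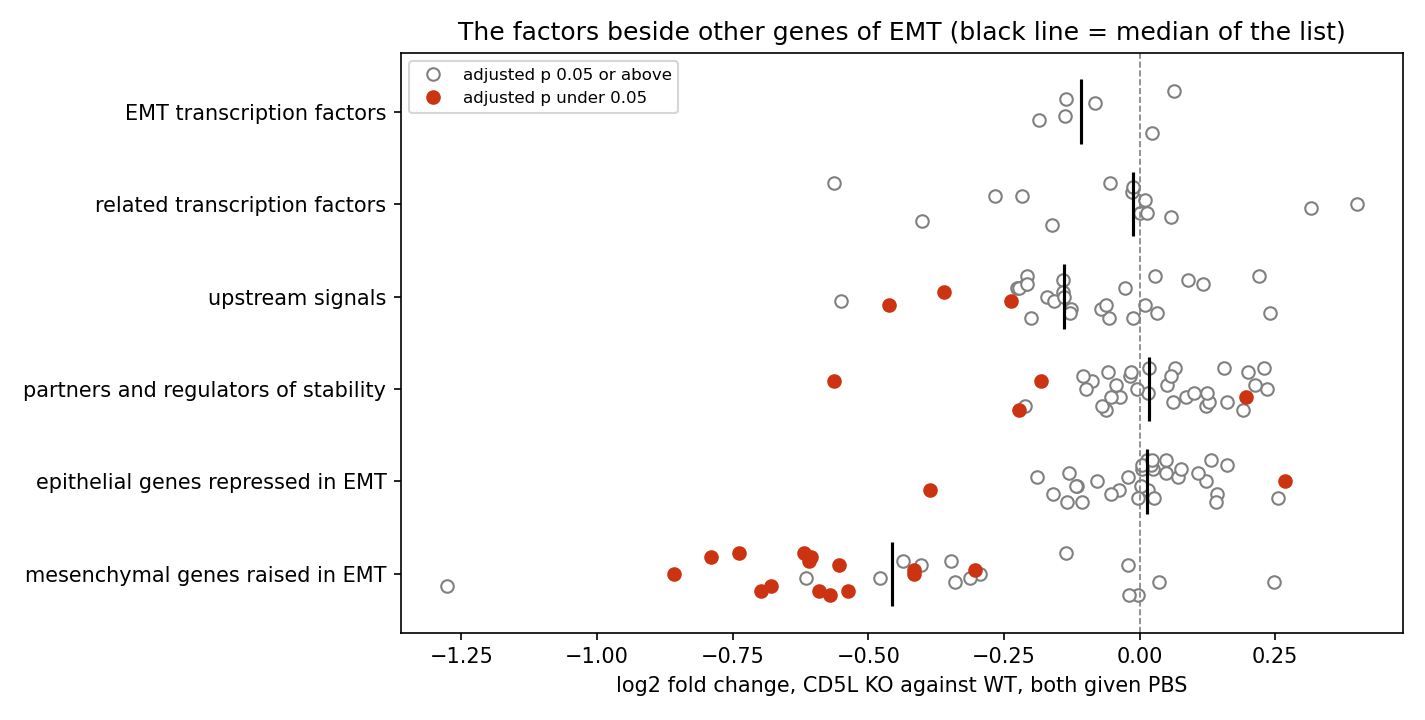
Log2 fold change between CD5L KO and WT mice given PBS for each tested gene of the factors and 5 related lists, with the median of each list as a black line and called genes filled. The 6 factors lie between -0.19 and 0.06, while the mesenchymal genes centre on -0.46 with 15 called.

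The second question was whether injected rCD5L altered the factors in mice that lack the protein. None of the 6 passed, in a comparison where 0% of 17467 genes were called by edgeR and 2.87% had an unadjusted p under 0.05, among them 0 of the 6. The groups overlapped for each factor, and did not overlap for 2.34% of genes. DESeq2 called 3 genes in this comparison and none of the factors. Zeb2 averaged 108 ± 37.7 CPM with rCD5L (SD, n = 5) and 134 ± 16 CPM with PBS (SD, n = 4), a log2 fold change of -0.30 with a 95% interval of -0.84 to 0.24 (edgeR adjusted p = 0.897). The log2 fold change was -0.22 for Zeb1, -0.22 for Snai2, -0.11 for Twist1, 0.03 for Snai1 and 0.28 for Twist2, with edgeR adjusted p of 0.900 to 0.994 for these 5.

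The negative values of Zeb2, Zeb1 and Snai2 rested on replicates 3 and 4. Without both kidneys, an alternative chosen after the data had been seen, Zeb2 stood at 0.02, Zeb1 at 0.06, Snai2 at 0.08 and Snai1 at -0.06 on the log2 scale. Proximal tubule markers were positive in 12 of 12 (median 1.29, and -0.16 without the 2 kidneys), distal nephron and collecting duct markers in 10 of 11 (0.38, then -0.13), and urothelial markers negative in 8 of 8 (-0.50, then -0.29), with 0 called. Epididymal markers, of which 7 were tested, had a median of 1.35 (0.97 without the 2 kidneys), with 4 at an unadjusted p under 0.05 and 0 called, and summed to 28.1 to 63.5 CPM with rCD5L and 10.3 to 25.9 CPM with PBS. Fibroblast markers were negative in 7 of 10 (-0.27, then -0.06), macrophage markers in 10 of 12 (-0.15, then 0.10) and erythroid genes in 5 of 5 (-0.54 in both), with 0 called. The part of these markers in the values of the factors was not tested. The interval of Snai1 in the full comparison, -0.77 to 0.82, reached 1.77-fold in the upward direction. Of the mesenchymal genes 15 of 30 were positive with a median of -0.02. The log2 fold change was 0.33 for Fn1, -0.05 for Vim and for Acta2, 0.11 for Tgfb1 and -0.08 for Cdh1, with edgeR adjusted p of 0.902 to 0.982 for these 5 genes.

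In WT mice, which make CD5L themselves, rCD5L left all 6 short of the threshold as well. Here 0% of 17455 genes were called by edgeR, while 16% had an unadjusted p under 0.05, and among the factors this was true of 1, Snai1. The groups overlapped for each factor, and did not for 3.58% of genes. Snai1 averaged 11.3 ± 2.73 CPM with rCD5L (SD, n = 5) and 8.88 ± 1.03 CPM with PBS (SD, n = 5), a log2 fold change of 0.36 with an interval of 0.04 to 0.68 (edgeR unadjusted p = 0.0295, adjusted p = 0.253). Over the 19 other settings its adjusted p ranged from 0.174, with DESeq2, to 1.0, with all 19 kidneys in 1 fit, and its log2 fold change without 1 kidney ranged from 0.23, without replicate 4 given rCD5L, to 0.45. DESeq2 called 508 genes in this comparison and 0 of the 6. Proximal tubule markers were negative in 12 of 12 (median -0.38, 6 with an unadjusted p under 0.05), lymphocyte markers positive in 11 of 12 (0.36), and smooth muscle and pericyte markers had a median of -0.31, with 5 of 9 lower at an unadjusted p under 0.05. Endothelial markers had 5 of 12 lower at that p, epididymal markers were positive in 6 of 7 (0.70, 4 at that p) and erythroid genes negative in 5 of 5 (-0.65). None of these markers was called by edgeR, and their part in the Snai1 value was not tested. The slope of log2 CPM on length was 0.0284 to 0.0498 per doubling with rCD5L and -0.00380 to 0.0320 with PBS.

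The remaining factors in WT mice varied in sign. Zeb2 averaged 156 ± 11.4 CPM with rCD5L against 147 ± 10.5 CPM with PBS, a log2 fold change of 0.10 with an interval of -0.03 to 0.24. Zeb1 had -0.06 with an interval of -0.20 to 0.09, and Snai2 had 0.04 with an interval of -0.27 to 0.35. Twist1 had -0.13, and Twist2 0.69 with an interval of -0.23 to 1.62. Acta2 (-0.42), Vim (-0.10), Fn1 (0.24), Tgfb1 (0.17) and Cdh1 (0.10) did not pass the test, with edgeR adjusted p of 0.159, 0.701, 0.381, 0.298 and 0.373. These kidneys given PBS also served in the first comparison.

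Between CD5L KO and WT mice that both received rCD5L, all 6 estimates were negative, but none passed. Of 17360 genes tested 0% were called by edgeR, although it called 1291 genes with all 19 kidneys in 1 fit and 644 without replicates 3 and 4, and 17.8% had an unadjusted p under 0.05, which held for 1 factor, Zeb2. The groups overlapped for each factor, and did not for 7.38% of genes. Zeb2 averaged 108 ± 37.7 CPM in CD5L KO (SD, n = 5) and 156 ± 11.4 CPM in WT mice (SD, n = 5), a log2 fold change of -0.53 with an interval of -1.0 to -0.06 (edgeR unadjusted p = 0.0293, adjusted p = 0.260). Of the 5 CD5L KO kidneys 4 lay below all WT kidneys. Without replicates 3 and 4 the log2 fold change was -0.22 ± 0.0739 (SE; edgeR adjusted p = 0.112), and with the gene length offset it was -0.28 (edgeR adjusted p = 0.407). Over all other settings its adjusted p ranged from 0.0618, with all 19 kidneys in 1 fit, to 0.457. The slope of log2 CPM on length was -0.0547 to 0.00676 per doubling in these CD5L KO kidneys and 0.0284 to 0.0498 in the WT kidneys.

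Snai2 had a log2 fold change of -0.45 in the same comparison, with an interval of -1.03 to 0.13, and 3 of 5 CD5L KO kidneys lay below all WT kidneys. Zeb1 had -0.29, Twist2 -0.37, Snai1 -0.27 and Twist1 -0.07, with edgeR adjusted p of 0.393 to 0.904 for these 4. The median of the 6 was -0.33, against -0.01 over all genes tested, and the mesenchymal genes had a median of -0.44 with 28 of 30 negative and 0 called. Without replicates 3 and 4 the median of the 6 was -0.18, against -0.0016 over all genes, and that of the mesenchymal genes was -0.32 with 3 of 30 called lower, where 3.58% of all 18012 genes tested were called. The single values were then -0.35 for Snai1, -0.14 for Snai2, -0.10 for Twist1, -0.38 for Twist2 and -0.02 for Zeb1, with edgeR adjusted p of 0.447 to 0.891. DESeq2 called 64 genes in all and 0 of the 6. Marker lists moved beside these levels. All 12 macrophage and all 12 lymphocyte markers had negative log2 fold changes (medians -0.34 and -0.35) and all 12 proximal tubule markers positive ones (median 1.59), with 0 called in each list by the pairwise fit. Fibroblast markers were negative in 10 of 10 (median -0.29), endothelial markers in 11 of 12 (-0.20) and podocyte markers in 8 of 8 (-0.36), while distal nephron markers were positive in 11 of 11 (0.37). With all 19 kidneys in 1 fit, 4 proximal tubule markers were called higher, and 2 podocyte markers, 1 fibroblast and 1 epididymal marker lower, where 7.0% of all genes were called. Without the 2 kidneys the medians were -0.06 for macrophage, -0.10 for lymphocyte and 0.13 for proximal tubule markers, with 1 of the last called higher. Fibroblast markers were then at -0.26 (1 called lower), endothelial markers at -0.22 (5 of 12 called lower), podocyte markers at -0.19 and distal nephron markers at 0.04 (1 called lower), where 3.58% of all genes were called. Their part in the result was not tested.

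The interaction of genotype and rCD5L asks whether rCD5L acted differently in the 2 genotypes, and it too was without a call among the 6 or among 18454 genes (0% by edgeR, 0 genes by DESeq2, 6.25% with an unadjusted p under 0.05 by edgeR, 0 of them among the 6). The estimates were -0.39 for Zeb2, with an interval of -0.90 to 0.13, -0.31 for Snai1, -0.24 for Snai2, -0.38 for Twist2, -0.14 for Zeb1 and 0.04 for Twist1 on the log2 scale. The edgeR adjusted p ranged from 0.731 to 0.982. The interval of Snai1 was -1.14 to 0.52. Leaving out 1 kidney gave -0.51 to -0.26 for Zeb2, -0.59 to -0.15 for Snai1 and -0.44 to -0.10 for Snai2, and the smallest of each came without replicate 4 of the CD5L KO group under rCD5L. Without its replicates 3 and 4 the estimates were -0.08 for Zeb2, -0.41 for Snai1 and 0.05 for Snai2. Proximal tubule markers were positive in 12 of 12 (median 1.66, and 0.23 without the 2 kidneys), 9 with an unadjusted p under 0.05. Distal nephron markers were positive in 10 of 11 (0.46, then -0.01), endothelial in 11 of 12 (0.13, then 0.10) and smooth muscle and pericyte in 8 of 9 (0.22, then 0.18). Lymphocyte markers were negative in 12 of 12 (-0.37, then -0.13), macrophage in 10 of 12 (-0.16, then 0.04) and fibroblast in 8 of 10 (-0.17, then -0.0045). Podocyte (-0.21, then -0.05) and urothelial markers (-0.33, then -0.12) were negative in 8 of 8 each. The part of these markers was not tested.

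The next question was which factors varied together over the kidneys. For log2 CPM over 19 kidneys, 4 of the 15 pairs correlated with an adjusted p under 0.05 (two-sided permutation test, Benjamini-Hochberg over the 15 pairs). Zeb1 and Zeb2 had a Pearson r of 0.912 and a Spearman rho of 0.689 (permutation adjusted p = 0.000675 and 0.0109). Snai2 and Zeb2 had 0.869 and 0.670 (permutation adjusted p = 0.000150 and 0.0109), and Snai2 and Zeb1 had 0.807 and 0.812 (permutation adjusted p = 0.000750 and 0.000600). Snai1 and Twist1 had 0.774 and 0.612 (permutation adjusted p = 0.000787 and 0.0243).

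Pairs across these 2 sets had lower values. Snai1 and Zeb1 had an r of 0.0896, Twist1 and Zeb1 of 0.168, Twist1 and Zeb2 of 0.294 and Snai1 and Zeb2 of 0.345. Snai2 with Snai1 reached 0.483 and with Twist1 0.405 (permutation adjusted p = 0.111 and 0.220), and the 5 pairs with Twist2 lay between -0.103 and 0.0928. With the group means removed, Zeb1 and Zeb2 kept an r of 0.898, Snai2 and Zeb2 of 0.816 and Snai1 and Twist1 of 0.847 (permutation adjusted p = 0.0280, 0.0316 and 0.0195 within groups), and Snai2 and Zeb1 one of 0.739 (permutation adjusted p = 0.0946).

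These values rested on replicates 3 and 4 of the CD5L KO group that received rCD5L, the 2 kidneys farthest from the median of Snai1, Snai2, Twist1 and Zeb1. Without the 2 kidneys, r was 0.593 for Zeb1 and Zeb2, 0.666 for Snai2 and Zeb2, 0.552 for Snai2 and Zeb1 and 0.513 for Snai1 and Twist1, and 0 of 15 pairs passed (permutation adjusted p = 0.0775, 0.0517, 0.0775 and 0.0866). The r of Snai1 and Zeb2 was then 0.561 and that of Snai1 and Snai2 0.539, both above that of Snai1 and Twist1, so the 2 sets did not hold without these kidneys. For Twist2 with Zeb1 and with Zeb2, replicates 4 and 5 of the WT mice given rCD5L were the 2 left out.

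**Figure D5:**
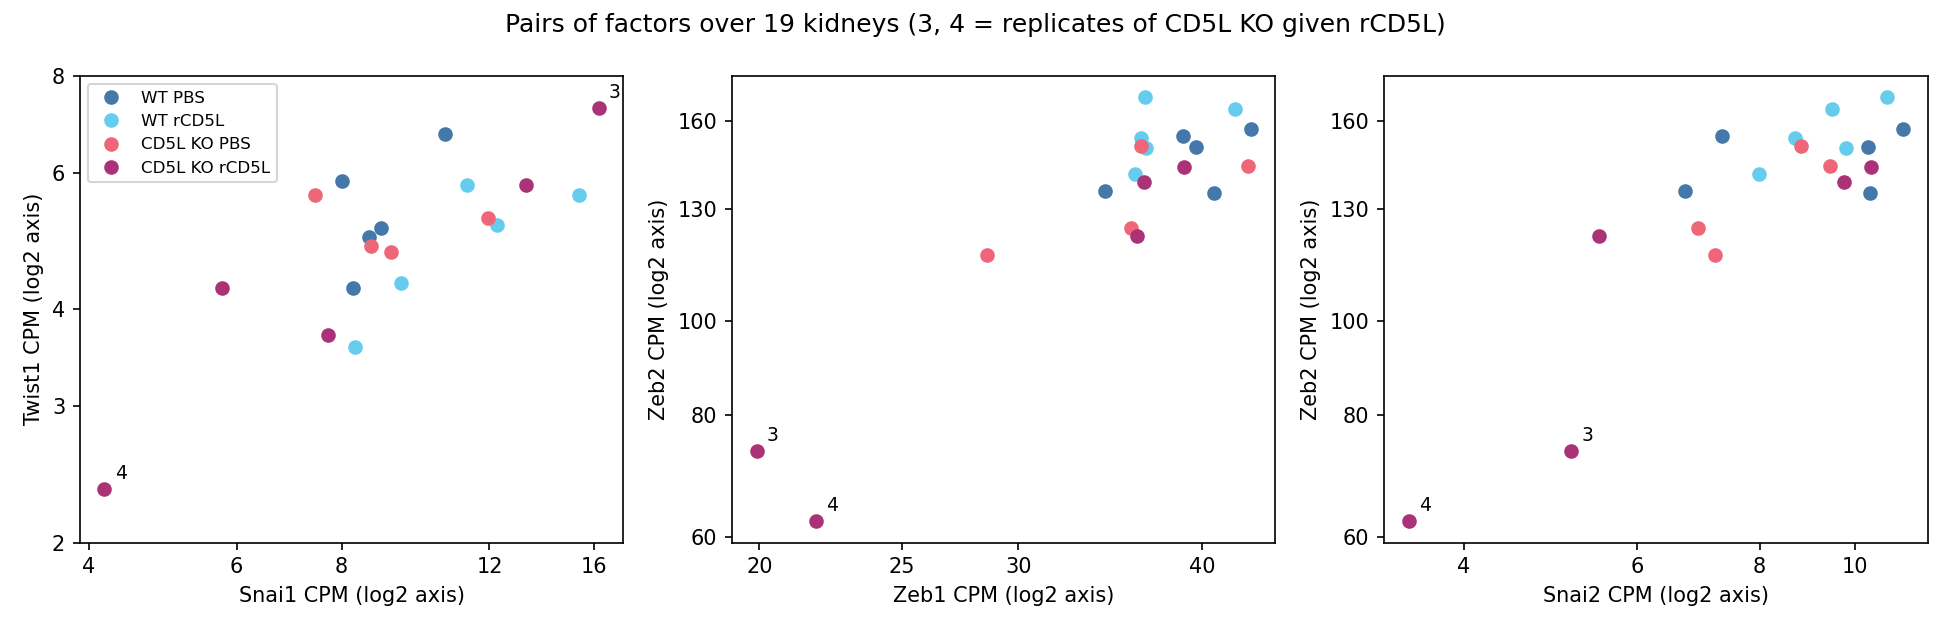
CPM of 3 pairs of factors in 19 kidneys on log2 axes, coloured by group, with replicates 3 and 4 of the CD5L KO group under rCD5L numbered. Both lie at the low end for Zeb1, Zeb2 and Snai2, whereas for Snai1 and Twist1 replicate 3 is the highest kidney and replicate 4 the lowest.

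The levels of other cell types ran beside those of the factors. As a description over the 19 kidneys, which include replicate 4 with its high tubule RNA, Snai2 had a Spearman rho of 0.758 with the mean score of the macrophage markers, 0.542 with fibroblast markers and -0.735 with distal nephron and collecting duct markers. Zeb2 had 0.628, 0.335 and -0.556 with the same lists, Zeb1 0.686, 0.582 and -0.700, and Twist2 -0.191, 0.233 and -0.0123. Podocyte markers had 0.567 with Snai2 and 0.561 with Zeb2, and proximal tubule markers -0.667 and -0.572. Smooth muscle and pericyte markers had 0.665 with Zeb1. Twist1 had 0.0842 with macrophage markers and 0.581 with fibroblast markers, and Snai1 had 0.367 and 0.439. With the mesenchymal genes, rho was 0.488 for Snai1, 0.658 for Snai2, 0.553 for Twist1, 0.575 for Zeb1 and 0.626 for Zeb2. Without replicates 3 and 4 of the CD5L KO group under rCD5L, rho with macrophage markers was 0.679 for Snai2, 0.490 for Zeb2, 0.578 for Zeb1, 0.0564 for Twist1 and 0.426 for Snai1. Podocyte markers then had 0.395 with Snai2 and 0.387 with Zeb2, and proximal tubule markers -0.539 and -0.414. Smooth muscle and pericyte markers then had 0.725 with Zeb1. With the mesenchymal genes rho was then 0.466 for Snai1, 0.625 for Snai2, 0.566 for Twist1, 0.539 for Zeb1 and 0.576 for Zeb2. The part of cell composition in these values was not tested.

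Of 14318 genes compared, those whose pattern over the 19 kidneys was most like a factor's were found by Spearman rho of log2 CPM. For Zeb2 they were Gucy1a1, a soluble guanylate cyclase subunit (0.916), the scavenger receptor gene Colec12 (0.900) and Nrp1, a co-receptor of semaphorins and VEGF (0.895). For Zeb1 they were Fam114a1 (0.914), Cnn1, the smooth muscle calponin (0.888), and Eogt (0.888). For Snai2 they were Antxr2 (0.902), Klhl23 (0.886) and Cdh11, a cadherin of mesenchymal cells (0.881). These 3 factors thus had their nearest neighbours at a rho of at least 0.881.

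Twist1 was most like Hic1, a transcription factor gene of mesenchymal progenitors (0.889), Plscr3 (0.839) and the lamin gene Lmna (0.837). Snai1 was most like Lrfn3 (0.879), Zfp385a (0.867) and Cpz, a carboxypeptidase gene (0.863). Twist2, with its few counts, reached 0.768 with Bmp2, a ligand of the BMP pathway, 0.758 with Rgmb, a BMP co-receptor, and 0.714 with Mlph. Without the 2 kidneys, the rho of the first of these genes was 0.887 for Zeb2 with Gucy1a1, 0.882 for Zeb1 with Fam114a1, 0.863 for Snai2 with Antxr2, 0.846 for Twist1 with Hic1, 0.831 for Snai1 with Lrfn3 and 0.743 for Twist2 with Bmp2.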

How the data were processed

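Bulk RNA-seq of whole obstructed kidneys was analysed from the deposited tables. The authors deposited counts per gene, made with Trimmomatic, HISAT2 (GRCm38/mm10) and featureCounts from read pairs of total RNA primed with random hexamers, and FPKM values, which they derived from counts, gene length and library size. Versions, the strand setting and the handling of reads with several matches are not given in the sources used here. Groups and replicate numbers came from the sample labels, and columns were matched by library name. The 36 pairs of kidneys within a group differed beyond sampling noise (chi-square per degree of freedom of 6.63 to 319).

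The test was the quasi-likelihood test of edgeR 4.0.16 (R 4.3.3), run on TMM-scaled libraries after filterByExpr (minimum count 10), with Benjamini-Hochberg adjustment over all genes tested and calls at an adjusted p under 0.05. A pairwise fit held the 2 groups at issue, and the interaction was fitted on all 4. Comparisons with a group in common share its kidneys. CPM used TMM-scaled libraries, and a prior count of 2 on the log2 scale. Alternatives were DESeq2 1.42.0, limma 3.58.1 on log2 FPKM (pseudocount 1 or 0.1), other scalings and filters, a gene length offset, a replicate block, a fit of all 19 kidneys and each kidney left out. Permutation tests of the pairs used 100000 resamples. The fits were tested on simulated data. The p-values measure the spread between these samples, and limits from a count of 0 cover counting error only.

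The members, the 5 gene lists and the 11 marker lists were chosen with earlier results of these data known. Named genes were the 6 factors, the 3 genes most like each in Spearman rho among those whose log2 CPM averaged 1 or more, the called genes with the 3 smallest adjusted p per list and direction, Cdh1, Vim, Fn1, Acta2 and Tgfb1, and overlapping genes. Foxc2, Prrx1, Snai3 and Tcf4 are named only as examples of their list, and the called fibroblast markers for completeness. Zeb1 also stands among the study's endothelial markers.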

Additional observations from a re-analysis of the deposited data

Results flagged for a closer look

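Of 24 sets of values (6 factors in 4 groups), 1 held a kidney far from the rest. Zeb1 stood at 42.1 CPM in replicate 2 of the WT mice given rCD5L, while the nearest of the other 4 kidneys had 36.7 CPM, a gap of 0.891 of the group's range. Chance alone marks out about 1 in 20 such groups.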

How the results depend on the processing

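Across 619 values of the 6 factors under other settings, 0 passed the threshold, 582 kept their direction and 37 took the other. The factors' precision is that of the intervals given above, and Twist2 rested on the fewest counts. Genes called with a moved count were as follows. Between CD5L KO and WT mice given PBS, against 1850, all 19 kidneys in 1 fit gave 12 (2 higher, 10 lower), and leaving out 1 kidney gave 1015 to 2062 (1015 and 1121 without WT replicates 4 and 2, 1038 and 1215 without CD5L KO replicates 1 and 2). With rCD5L in CD5L KO, DESeq2 gave 3. With rCD5L in WT mice, DESeq2 gave 508, no filter 137, and leaving out 1 kidney 0 to 39 (39 without WT replicate 1 given PBS). Between genotypes given rCD5L, DESeq2 gave 64, all 19 kidneys in 1 fit 1291, the fit without replicates 3 and 4 of the CD5L KO mice 644, and leaving out 1 kidney 0 to 1 (1 without CD5L KO replicate 2). The pooled fits share 1 estimate of spread over all groups and test another set of genes, and the cause of the shifts was not tested.

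The sign changed as follows on the log2 scale. Between CD5L KO and WT mice given PBS, the gene length offset gave -0.037 for Snai1 and 0.0016 for Zeb2, and FPKM with a pseudocount of 0.1 gave -0.025 for Twist2. With rCD5L in CD5L KO, FPKM gave -0.078 and -0.12 for Snai1 (pseudocounts 1 and 0.1), and for the interaction -0.037 and -0.079 for Twist1. Without replicates 3 and 4 of the CD5L KO mice given rCD5L, chosen after seeing the data, rCD5L in CD5L KO gave -0.058 for Snai1, 0.083 for Snai2, 0.055 for Zeb1 and 0.016 for Zeb2, and the interaction 0.049 for Snai2, -0.017 for Twist1 and 0.12 for Zeb1. Leaving out 1 kidney gave, between CD5L KO and WT mice given PBS, -0.081 to 0.16 for Snai1, -0.16 to 0.011 for Twist1 and -0.44 to 0.23 for Twist2; with rCD5L in CD5L KO, -0.25 to 0.21 for Snai1 and -0.32 to 0.052 for Twist1; with rCD5L in WT mice, -0.054 to 0.12 for Snai2. Between genotypes given rCD5L it gave -0.27 to 0.092 for Twist1, and for the interaction -0.18 to 0.18 for Twist1 and -0.64 to 0.082 for Twist2.

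Whether replicate numbers pair the kidneys is not stated in the labels and was not settled here. Of 18 pairs of same-numbered kidneys, 5 had deviations correlating above 0.1 (range -0.186 to 0.174). No such values of differently numbered kidneys are given here, so these cannot decide it. A replicate block gave 2132 genes between CD5L KO and WT mice given PBS, 0 in the other comparisons, 0 of the 6 factors in each, and -0.17 for Twist2 in the first. Of the 15 pairs of factors 4 passed, 3 with group means removed and 0 without the 2 kidneys farthest from the median.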
